A study of Mus musculus with 12 samples.

Results

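Notch pathway genes were described in U2OS, a human osteosarcoma cell line. The 10 members were the receptors NOTCH1, NOTCH2 and NOTCH3, the ligands JAG1 and JAG2, the nuclear coactivator MAML2, the deltex ubiquitin ligases DTX3 and DTX4, and the target genes HES1 and HEY1. They were found by full name among the 58735 genes of the deposited table, and each name matched a single gene. The members were chosen on the expression values of these same libraries, so their levels and differences are given as a description. No p-value is printed for a member. Whether a member passed the threshold set below over all genes is part of the description and no independent test. NOTCH3, JAG1, MAML2 and DTX3 also stand in gene lists that the study drew from these libraries, and their direction is not independent evidence.

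RNA was sequenced in 12 libraries, in 4 groups of 3. The blank group was U2OS cells for which the labels name no agent, siSRSF1-2 and siSRSF1-3 were cells given either of a pair of small interfering RNAs against the splicing factor SRSF1, and OE-LINC01134 was cells made to overexpress LINC01134, a long non-coding RNA. All groups share the U2OS background, and the labels give no time, dose, clone or vector. None of the samples carries a control siRNA or an empty vector, so the effect of the transfection and that of the agent cannot be told apart. The study's methods speak of biological replicates, in a number per condition that differs from the libraries per group here. A figure legend of the study speaks of 3 experimental repeats. The labels do not say whether these libraries came from separate cultures. The p-values therefore measure the spread between libraries, which may be technical.

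Notch receptors are single-pass membrane proteins that are activated by ligands of the Jagged and Delta families on a neighbouring cell. Ligand binding exposes the receptor to ADAM proteases and then to gamma-secretase, and the released intracellular domain enters the nucleus, where it joins the DNA-binding protein RBPJ and a mastermind coactivator of the MAML family. The complex switches on targets such as the HES and HEY repressors. In bone, Notch signalling is known to restrain osteoblast maturation, and it has been studied in osteosarcoma for its role in invasion and growth.

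Levels were deposited as FPKM, the fragments scaled by gene length and library size, which allow genes of different length to be compared. The libraries held 26237763 to 32954539 reads assigned to genes. SRSF1 itself ranged from 19.8 to 35.9 FPKM in the blank libraries, from 7.09 to 7.46 with siSRSF1-2 and from 3.33 to 7.90 with siSRSF1-3. LINC01134 was between 878 and 1279 FPKM in the OE-LINC01134 libraries and at most 1.11 FPKM in the others. Of 9 mesenchymal marker genes, 8 had a group mean of 0.5 FPKM or more (7 with siSRSF1-3), while COL1A2 was at most 0.0131 FPKM in all libraries and CDH11 between 0.191 and 1.18 FPKM. Their summed FPKM was 290 to 440 in the blank libraries, 157 to 377 with OE-LINC01134, 152 to 157 with siSRSF1-2 and 165 to 286 with siSRSF1-3. The 6 epithelial markers, 4 of them at 0.5 FPKM or more in each group, summed to 4.06 to 5.49 FPKM in the blank libraries, 6.66 to 7.57 with OE-LINC01134, 4.34 to 5.09 with siSRSF1-2 and 7.16 to 7.91 with siSRSF1-3. The endothelial genes summed to at most 1.09 FPKM and the leukocyte genes to at most 0.277 FPKM. The mesenchymal sum varied within OE-LINC01134 and siSRSF1-3 as well as between groups, and its range with OE-LINC01134 overlapped that of the blank group. ALPL, one of its genes, was at 5.30 to 5.94 FPKM in the blank libraries. It was at 7.53 to 7.87 FPKM with siSRSF1-2, 7.27 to 12.9 with siSRSF1-3 and 1.09 to 2.22 with OE-LINC01134. The part of these sums in the results was not tested. TERT, which this line is known to lack, was at most 0.115 FPKM.

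Several libraries did not group by their labels. The median absolute log2 difference over the tested genes was 0.09 between blank replicates 2 and 3, 0.08 between OE-LINC01134 replicates 1 and 3, and 0.09 within the siSRSF1-2 group, which left these 5 pairs between 1.90 and 2.57 times counting noise. The other pairs within a group were between 22.9 and 95.6 times counting noise. OE-LINC01134 replicate 2 and blank replicate 1 were closer to each other (0.26) than to their own groups (0.34 and 0.35 for the first, 0.34 for the second), and siSRSF1-3 replicate 3 was closer to the siSRSF1-2 libraries (0.24 to 0.26) than to its own (0.46 and 0.67). VIM, an abundant mesenchymal filament gene, was at 171 to 248 FPKM in the blank libraries, OE-LINC01134 replicate 2 and siSRSF1-3 replicates 1 and 2, and at 68.7 to 79.4 FPKM in the other 6. No label names a batch. The log2 fold changes against blank are given with and without OE-LINC01134 replicate 2 or siSRSF1-3 replicate 3.

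NOTCH1, NOTCH2 and NOTCH3 differed in how they moved. NOTCH2 was the most abundant receptor in all 12 libraries, NOTCH3 was lowest with siSRSF1-3 and intermediate with siSRSF1-2, and NOTCH1 was below the other groups in the siSRSF1-3 libraries. NOTCH2 (ENSG00000134250) lies on the minus strand of chromosome 1, from 119911553 to 120069626, in the coordinates of the deposited table, whose human build is not given in the sources used here. NOTCH2 was at 13.4, 11.8 and 11.6 FPKM in the blank libraries, 15.9, 16.9 and 17.6 FPKM with siSRSF1-2, 6.73, 6.09 and 11.6 FPKM with siSRSF1-3, and 15.1, 10.1 and 15.8 FPKM with OE-LINC01134. Every siSRSF1-2 library was above every blank library and every siSRSF1-3 library was below them, although siSRSF1-3 replicate 3 was at nearly the level of blank replicate 3. Reads of the NOTCH2NL paralogs can be shared with NOTCH2, and its level is uncertain to that extent.

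NOTCH3 (ENSG00000074181; chromosome 19, 15159038 to 15200981, minus strand), a receptor best known from vascular smooth muscle and pericytes, was at 5.0, 6.20 and 6.06 FPKM in the blank libraries. It was at 3.29, 3.16 and 3.27 FPKM with siSRSF1-2 and at 0.950, 1.03 and 2.01 FPKM with siSRSF1-3. In the OE-LINC01134 libraries it was at 2.79, 6.17 and 2.96 FPKM. All libraries of both siRNAs lay below all blank libraries, and OE-LINC01134 replicate 2 lay inside the blank range while replicates 1 and 3 lay below it. From blank to siSRSF1-3 the mean went from 5.76 ± 0.657 to 1.33 ± 0.594 FPKM (SD, n = 3), and the siSRSF1-3 libraries did not overlap those of any other group.

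NOTCH1 (ENSG00000148400; chromosome 9, 136494433 to 136545786, minus strand), the receptor that is often mutated in T-cell leukaemia, was at 4.65, 3.49 and 3.14 FPKM in the blank libraries and at 3.12, 3.20 and 3.39 FPKM with siSRSF1-2. With siSRSF1-3 it was at 1.17, 1.48 and 2.52 FPKM, below every library of the other groups. The OE-LINC01134 libraries were at 3.86, 3.98 and 3.80 FPKM. In the order of mean levels, OE-LINC01134 overlapped with blank and blank with siSRSF1-2, and the step down to siSRSF1-3 was the only one without overlap. An antisense transcript within NOTCH1 had a mean of 0.188 FPKM, and without a stated strand its reads cannot be told apart from those of the receptor.

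**Figure D1:**
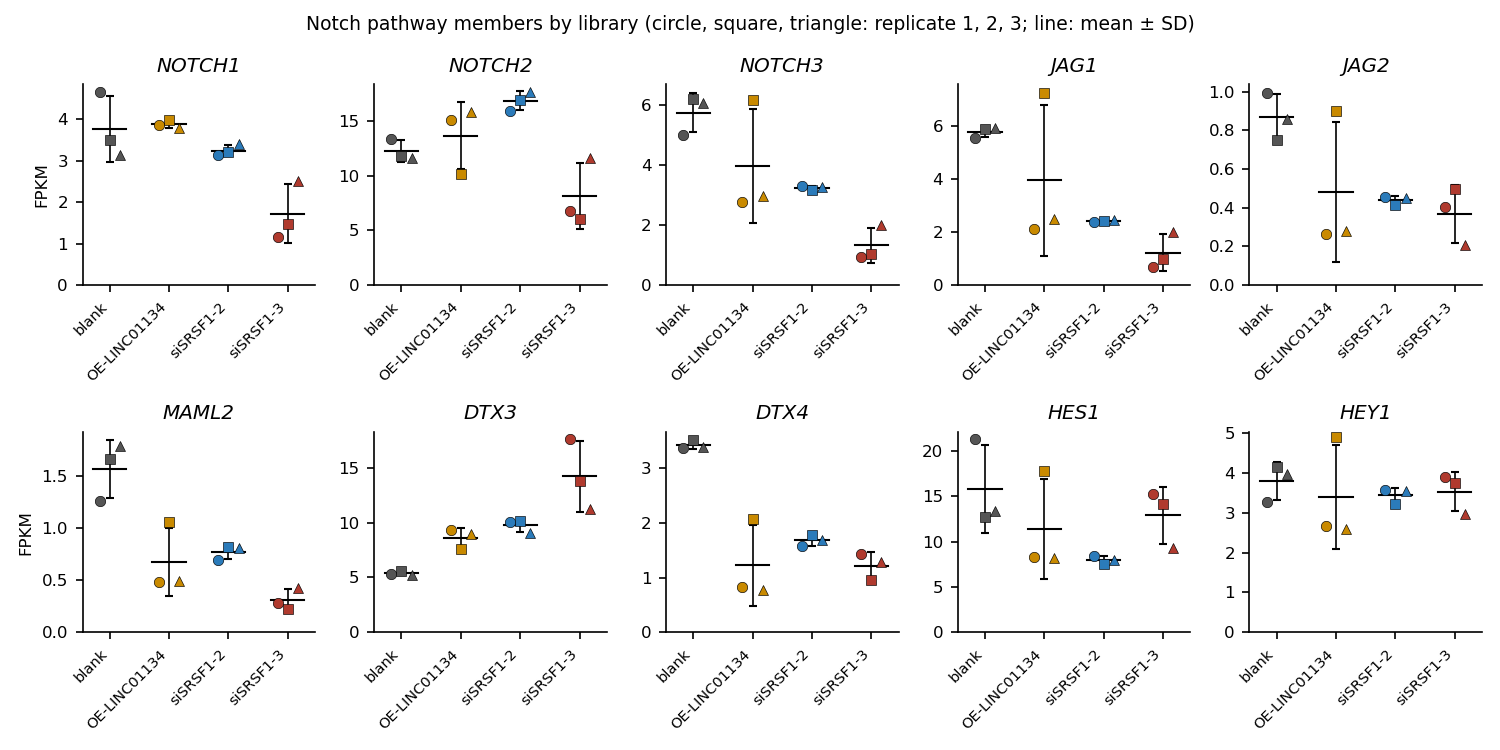
FPKM of the 10 members in each library (y axis, starting at 0) by group (x axis), with circle, square and triangle for replicates 1, 2 and 3, a line at the group mean and a bar of ± SD. NOTCH3, JAG1 and MAML2 were lowest with siSRSF1-3 and DTX3 was highest there, while OE-LINC01134 replicate 2 lay apart from replicates 1 and 3 for most members.

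The makeup of the receptor pool was given as each receptor's share of the summed FPKM of NOTCH1 to NOTCH4. The sum was 22.5 ± 1.14 FPKM in the blank group, 23.7 ± 0.984 with siSRSF1-2, 22.4 ± 0.807 with OE-LINC01134 and 11.6 ± 4.24 with siSRSF1-3 (SD, n = 3). NOTCH2 made up 53.1 to 56.3% of the pool in the blank libraries, 70.0 to 71.4% with siSRSF1-2 and 67.1 to 72.6% with siSRSF1-3. NOTCH3 made up 21.1 to 28.2% in the blank libraries, 13.2 to 14.5% with siSRSF1-2 and 10.2 to 12.2% with siSRSF1-3. The pool thus held a larger share of NOTCH2 and a smaller share of NOTCH3 in every siRNA library than in any blank library, with a summed level of 22.7 to 24.7 FPKM with siSRSF1-2 and 9.07 to 16.5 FPKM with siSRSF1-3. OE-LINC01134 replicates 1 and 3 had NOTCH2 shares of 67.6 and 68.1%, and replicate 2 had 46.8%. The share does not depend on the factor by which a library was scaled, but a trend with gene length does not cancel in it. NOTCH2 is 16807 and NOTCH3 9394 bases long, and the shares were not computed with the length trend described below removed. NOTCH4, the remaining receptor, was at 1.35 FPKM or less in all libraries and overlaps the gene of G protein signaling modulator 3 on the same strand, with which its reads can be mixed.

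**Figure D2:**
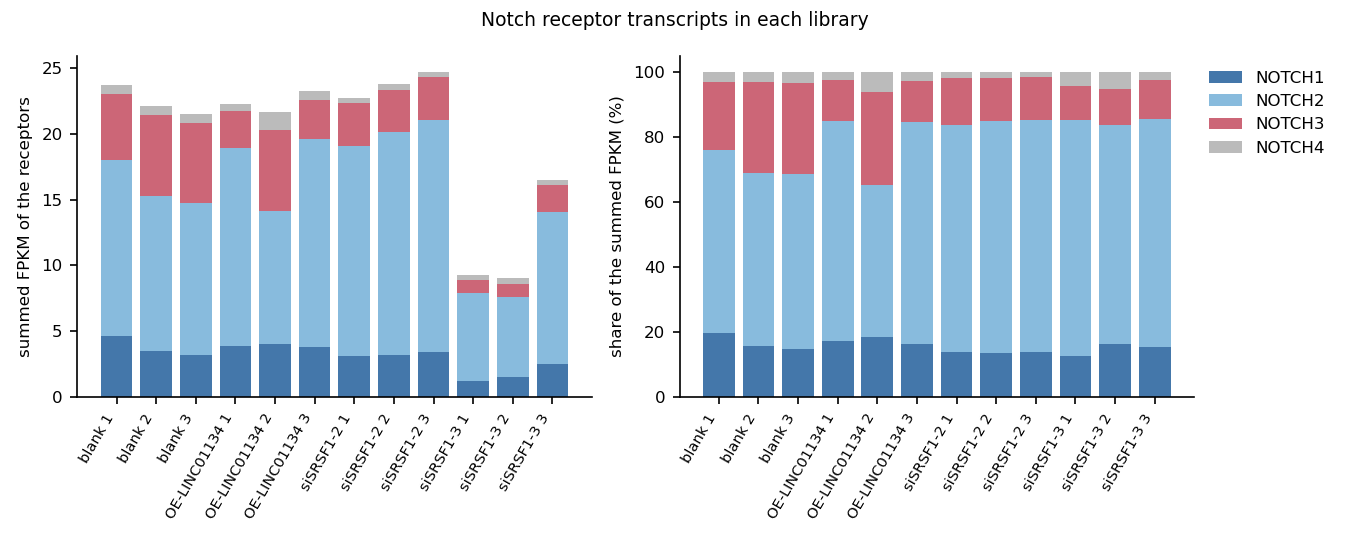
Summed FPKM of the 4 Notch receptors (left, stacked bars from 0) and each receptor's percent of that sum (right) in each of the 12 libraries. The sum was 9.27, 9.07 and 16.5 FPKM in the siSRSF1-3 libraries and at least 21.5 FPKM elsewhere, and NOTCH3 took a smaller share in all siRNA libraries than in the blank libraries.

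JAG1 was the main canonical ligand of the blank cells and the member with the largest difference with siSRSF1-3. JAG1 (ENSG00000101384; chromosome 20, 10637684 to 10673999, minus strand), a transmembrane ligand whose loss causes Alagille syndrome, was at 5.55, 5.89 and 5.92 FPKM in the blank libraries. It was at 2.37, 2.41 and 2.46 FPKM with siSRSF1-2, at 0.691, 0.990 and 2.00 FPKM with siSRSF1-3, and at 2.13, 7.24 and 2.49 FPKM with OE-LINC01134. The 6 siRNA libraries were all below the blank libraries, and the siRNA groups did not overlap each other. OE-LINC01134 replicate 2 had the highest JAG1 of all libraries, while replicates 1 and 3 were at the level of the siSRSF1-2 group.

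JAG2 (ENSG00000184916; chromosome 14, 105140981 to 105168824, minus strand), its close relative, was the lowest ligand among the members. JAG2 was at 0.994, 0.748 and 0.860 FPKM in the blank libraries, at 0.413 to 0.457 FPKM with siSRSF1-2 and at 0.206 to 0.498 FPKM with siSRSF1-3. The siRNA groups were both below the blank group and overlapped each other. With OE-LINC01134, JAG2 was at 0.264 and 0.279 FPKM in replicates 1 and 3 and at 0.898 FPKM in replicate 2, again inside the blank range.

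Among the canonical ligands JAG1, JAG2, DLL1, DLL3 and DLL4, JAG1 made up 58.7 to 61.2% of the summed FPKM in the blank libraries, 45.6 to 51.9% with siSRSF1-2 and 9.16 to 41.6% with siSRSF1-3. DLL3, a ligand that is known to inhibit Notch in the same cell and that is no member, made up 24.3% ± 0.35 (SD, n = 3) in the blank group and 61.1% ± 18.8 with siSRSF1-3. DLL3 was at 5.96 and 3.29 FPKM in siSRSF1-3 replicates 1 and 2 and at 2.00 FPKM in replicate 3, against 2.17 to 2.46 FPKM in the blank libraries, and its difference did not pass the threshold (adjusted p = 0.376, limma). JAG1 was thus the leading ligand in the blank and siSRSF1-2 libraries, and DLL3 led in siSRSF1-3 replicates 1 and 2. JAG1 is 9298 and DLL3 2618 bases long. In siSRSF1-3 replicates 1 and 2, the median log2 difference from the blank mean was 0.27 and 0.24 over all tested genes of 2000 to 4000 bases. It was -0.44 and -0.37 over those of more than 9000 bases. The part of gene length in the ligand shares was not tested.

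MAML2 (ENSG00000184384; chromosome 11, 95976598 to 96343180, minus strand), which bridges the Notch and RBPJ complex to histone acetyltransferases, was at 1.26, 1.66 and 1.78 FPKM in the blank libraries. MAML2 was at 0.691, 0.824 and 0.813 FPKM with siSRSF1-2, at 0.280, 0.227 and 0.429 FPKM with siSRSF1-3, and at 0.481, 1.06 and 0.492 FPKM with OE-LINC01134. All 9 manipulated libraries were below the blank libraries, and the siSRSF1-3 libraries were below all others. MAML1, the most abundant mastermind coactivator and no member, made up 58.8 to 62.0% of the summed FPKM of MAML1, MAML2 and MAML3 in the blank libraries, 79.8 to 81.8% with siSRSF1-2 and 74.7 to 88.5% with siSRSF1-3. The mean level of MAML1 was 5.39 FPKM in the blank group, 6.53 FPKM with siSRSF1-2 and 3.96 FPKM with siSRSF1-3, where its log2 fold change of -0.50 did not pass (adjusted p = 0.314, limma) and the sum over the family was 4.71 FPKM against 8.94 FPKM in the blank group.

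DTX3 and DTX4, E3 ligases of the deltex family that act on Notch trafficking, went in opposite directions. DTX3 (ENSG00000178498; chromosome 12, 57604622 to 57609804, plus strand) was at 5.33, 5.56 and 5.22 FPKM in the blank libraries, 10.1, 10.1 and 9.01 FPKM with siSRSF1-2, 17.6, 13.8 and 11.2 FPKM with siSRSF1-3, and 9.29, 7.57 and 8.97 FPKM with OE-LINC01134. All 9 manipulated libraries were above the blank libraries, and the siSRSF1-3 libraries were above all others. DTX4 (ENSG00000110042; chromosome 11, 59171430 to 59208587, plus strand) was at 3.37, 3.51 and 3.39 FPKM in the blank libraries, 1.57, 1.78 and 1.69 FPKM with siSRSF1-2, 1.43, 0.952 and 1.28 FPKM with siSRSF1-3, and 0.824, 2.07 and 0.778 FPKM with OE-LINC01134. All 9 manipulated libraries were below the blank libraries. Of the summed FPKM of DTX1, DTX2, DTX3, DTX3L and DTX4, DTX3 made up 19.2 to 22.5% in the blank libraries and 40.3 to 43.5% with siSRSF1-3, and DTX4 made up 12.1 to 14.2% and 3.01 to 4.6%. The share of DTX3 was 32.1 to 34.7% with siSRSF1-2 and 24.3 to 33.4% with OE-LINC01134. That of DTX4 was 5.40 to 6.01% and 2.83 to 6.66%, so both shares lay outside the blank range in these groups too.

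HES1 and HEY1, basic helix-loop-helix repressors that are standard readouts of Notch activity, overlapped between neighbouring groups at each step of the order of mean levels. HES1 (ENSG00000114315; chromosome 3, 194136145 to 194138732, plus strand) was at 21.4, 12.7 and 13.4 FPKM in the blank libraries and at 8.43, 7.57 and 7.96 FPKM with siSRSF1-2, below every blank library. With siSRSF1-3 it was at 15.2 and 14.2 FPKM in replicates 1 and 2, inside the blank range, and at 9.32 FPKM in replicate 3. With OE-LINC01134 it was at 8.33, 17.8 and 8.16 FPKM. The 6 libraries with the lowest HES1 were the 6 with the lowest VIM, and the part of this split in the HES1 result was not tested. HEY1 (ENSG00000164683; chromosome 8, 79764010 to 79767863, minus strand) was between 3.25 and 4.14 FPKM in the blank libraries, between 3.22 and 3.55 FPKM with siSRSF1-2 and between 2.96 and 3.88 FPKM with siSRSF1-3.

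The comparisons between groups used limma on log2(FPKM + 0.1), fitted over the 17538 genes whose mean was 0.5 FPKM or more, which included all 10 members. A gene passed with a Benjamini-Hochberg adjusted p under 0.05 over all of these genes and an absolute log2 fold change over 1. With siSRSF1-3 against blank, 4 members passed as lower and 1 as higher. JAG1 fell by 2.27 ± 0.36 on the log2 scale, NOTCH3 fell by 2.10 ± 0.30, MAML2 fell by 2.04 ± 0.34 and DTX4 fell by 1.43 ± 0.22 (± SE). DTX3 rose by 1.36 ± 0.21. NOTCH1 at -1.13 ± 0.32, JAG2 at -1.09 ± 0.40, NOTCH2 at -0.64 ± 0.27, HES1 at -0.28 ± 0.29 and HEY1 at -0.10 ± 0.20 did not pass. Over all genes tested, 0.331% passed as higher and 0.929% as lower (58 and 163 genes, against 11 and 58 when scaled to each library's read total). With FPKM rescaled to a common sum, 1 gene passed. Since the members were chosen on these values, nothing is read from their counts beside these shares. The median log2 fold change was -1.11 over the members and -0.01 over all genes tested, and nothing is read from this difference either.

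These calls depended on several of the libraries. Without blank replicate 1, 2 or 3, or without siSRSF1-3 replicate 1 or 2, no member passed (0 of 10), and between 0 and 29 of all genes did. Without siSRSF1-3 replicate 3, the library closest to siSRSF1-2, 1 member passed as higher and 5 as lower, among 2192 higher and 1992 lower over all genes. NOTCH1 was then added at -1.43, JAG1 and NOTCH3 were at -2.66 and -2.42, MAML2, DTX4 and DTX3 at -2.23, -1.47 and 1.52, and JAG2, NOTCH2, HES1 and HEY1, which did not pass, at -0.81, -0.92, -0.07 and 0.02. Over the omissions of each library in turn, the log2 fold change of NOTCH3 stayed between -2.42 and -1.92, that of JAG1 between -2.66 and -1.96, that of MAML2 between -2.23 and -1.88, that of DTX4 between -1.55 and -1.28, and that of DTX3 between 1.2 and 1.52. No member passed either with near-identical libraries averaged, a pseudocount of 0.01, no filter on low values, or FPKM rescaled to each library's read total or to a common sum, and the 5 members kept their direction under each of these. With one prior variance for all genes in place of a trend on mean expression, MAML2 and DTX4 passed, and JAG1, NOTCH3 and DTX3 did not.

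With siSRSF1-2 against blank, JAG1 was the member that passed, and it fell by 1.23 ± 0.07 on the log2 scale. It passed without each of the 6 libraries in turn, with log2 fold changes between -1.26 and -1.21, but not with near-identical libraries averaged, with one spread over all 4 groups or with a pseudocount of 1. DTX4 was at -0.99 ± 0.09, HES1 at -0.94 ± 0.20, MAML2 at -0.92 ± 0.18, JAG2 at -0.83 ± 0.20 and NOTCH3 at -0.80 ± 0.10, all on the inner side of the minimum fold change. DTX3 was at 0.85 ± 0.08 and NOTCH2 at 0.46 ± 0.08, and NOTCH1 and HEY1 were at -0.19 ± 0.15 and -0.13 ± 0.12. Without a minimum fold change, 8 members passed, beside 4702 of the 17538 genes tested, and nothing is read from this count. MAML2 passed without blank replicate 1 (-1.06), HES1 without blank replicate 2 (-1.07) or 3 (-1.04), and DTX4 without siSRSF1-2 replicate 2 (-1.03). Over all genes tested, 2.22% passed as higher and 2.73% as lower (389 and 479 genes, against 604 and 340 with FPKM rescaled to a common sum). The median was -0.82 over the members and 0.02 over all genes tested. Since the members were chosen on these values, nothing is read from this difference.

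With OE-LINC01134 against blank, 0 members passed in the limma fit, 2 as lower by the unadjusted p with this fold change kept, and 1 as lower with voom on the recovered reads. Of all genes tested, 1307 passed by the unadjusted p and 348 with voom. DTX4 was at -1.54 ± 0.35, MAML2 at -1.17 ± 0.33, JAG2 at -0.90 ± 0.44, JAG1 at -0.75 ± 0.43 and NOTCH3 at -0.61 ± 0.31. DTX3 was at 0.67 ± 0.12, and HES1, HEY1, NOTCH2 and NOTCH1 were at -0.52, -0.21, 0.13 and 0.06. Over all genes tested, 0.257% passed as higher and 0.593% as lower (45 and 104 genes, against 83 and 103 with FPKM rescaled to a common sum). Without OE-LINC01134 replicate 2, DTX4 (-1.97), MAML2 (-1.50), JAG2 (-1.37) and JAG1 (-1.29) passed as lower, among 511 higher and 1029 lower over all genes. NOTCH3 (-0.97), HES1 (-0.89), HEY1 (-0.50), DTX3 (0.75), NOTCH2 (0.33) and NOTCH1 (0.04) did not pass without it. The call for these 4 members was thus decided by a library that was closer to blank replicate 1 than to its own group.

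With siSRSF1-3 against siSRSF1-2, 0 members passed in the limma fit, 4 as lower by the unadjusted p with this fold change kept, and 0 with voom. Of all genes tested, 2883 passed by the unadjusted p and 110 with voom. NOTCH3 was at -1.30 ± 0.29, MAML2 at -1.12 ± 0.30, NOTCH2 at -1.10 ± 0.25, JAG1 at -1.04 ± 0.36 and NOTCH1 at -0.94 ± 0.28. DTX4 was at -0.45 ± 0.20 and JAG2 at -0.25 ± 0.36. HES1 was at 0.65 ± 0.20, or 0.37 with the length trend removed and 0.08 with FPKM rescaled to a common sum, DTX3 at 0.52 ± 0.18, or -0.06 with FPKM rescaled to a common sum, and HEY1 at 0.03 ± 0.15, with a sign that changed in 6 of 19 alternatives. Over all genes tested, 0.0342% passed as higher and 0.0513% as lower (6 and 9 genes, against 1 and 7 with FPKM rescaled to a common sum). Without siSRSF1-3 replicate 3, NOTCH3 (-1.62), JAG1 (-1.44), NOTCH2 (-1.38), MAML2 (-1.31) and NOTCH1 (-1.24) passed as lower, among 2807 higher and 2551 lower over all genes.

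**Figure D3:**
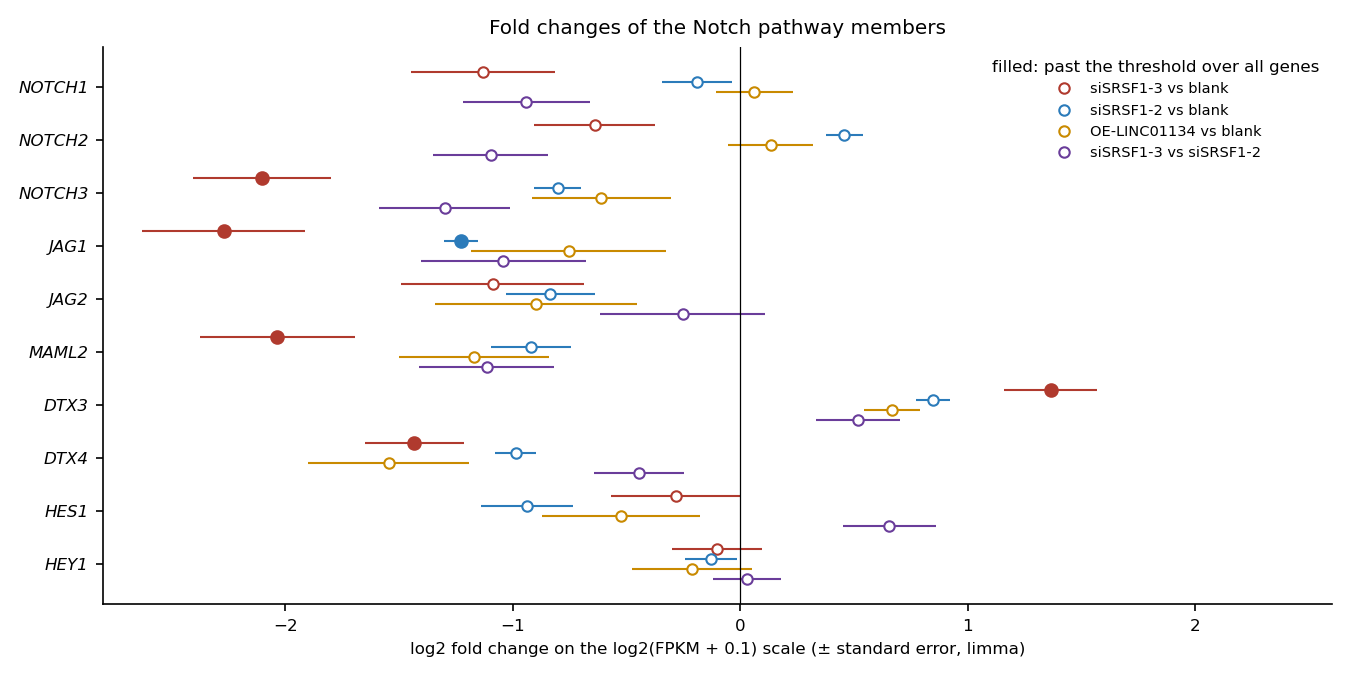
Log2 fold change of each member on the log2(FPKM + 0.1) scale (x axis) with its limma standard error, by member (y axis) and comparison (colour), with filled points past the threshold over all genes. JAG1, NOTCH3, MAML2 and DTX4 passed as lower and DTX3 as higher with siSRSF1-3, JAG1 passed with siSRSF1-2, and the OE-LINC01134 and siRNA against siRNA comparisons held no filled point.

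The ranges of the libraries were also compared directly. With siSRSF1-3, 7 members were below and 1 above all blank libraries, beside 18% and 19.2% of all genes tested. With siSRSF1-2, 6 members were below and 2 above, beside 24.2% and 25.3% of all genes. With OE-LINC01134, MAML2 and DTX4 were below and DTX3 was above, beside 13.8% and 16.8%. Between siSRSF1-3 and siSRSF1-2, 6 members were lower and 2 higher without overlap, beside 27.6% and 27% of all genes. The first 3 comparisons share the blank libraries, and the lack of overlap in one is no repeat of that in another. Since the members were chosen on these values, nothing is read from their counts beside the shares of all genes.

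Gene length moved with the siSRSF1-3 result. The median log2 fold change of all tested genes with siSRSF1-3 was 0.14 for genes of up to 2000 bases and -0.27 for genes of over 9000 bases. Relative to the blank mean, the median of the genes over 9000 bases was -0.44 and -0.37 in siSRSF1-3 replicates 1 and 2 and 0.01 in replicate 3. NOTCH1, NOTCH2, NOTCH3 and JAG1 are over 9000 bases long as listed, with 10377, 16807, 9394 and 9298 bases. With the length trend of each library removed, NOTCH3 was at -1.87, JAG1 at -2.04, MAML2 at -1.87, DTX4 at -1.31 and DTX3 at 1.36. The same 5 members then passed, among 341 over all genes. NOTCH2, the longest member, went from -0.64 to -0.29 and NOTCH1 from -1.13 to -0.88. With siSRSF1-2, the value of NOTCH2 went from 0.46 to 0.24. In replicate 3, where the long genes had a median near 0, NOTCH3 and JAG1 were 1.46 and 1.48 below the blank mean on the log2 scale, NOTCH1 was 0.54 below it and NOTCH2 0.08 below it.

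**Figure D4:**
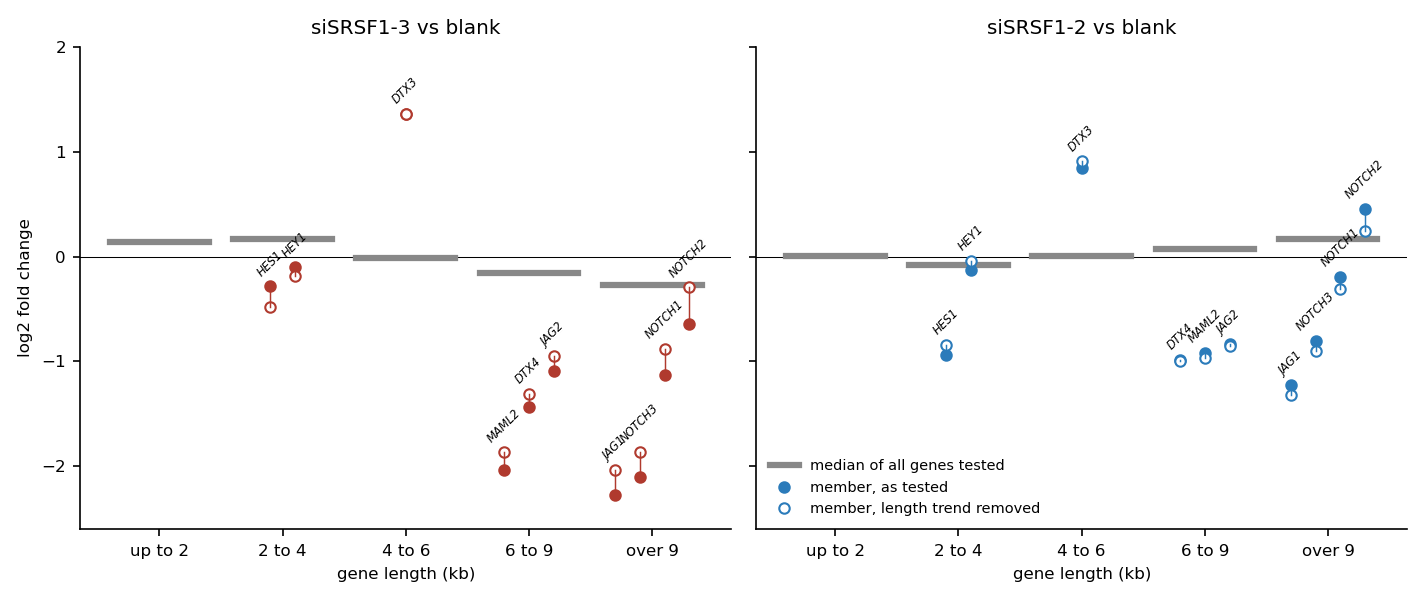
Log2 fold change (y axis) of the members by gene length class (x axis, kb) for siSRSF1-3 (left) and siSRSF1-2 (right) against blank, as tested (filled) and with the length trend removed (open), with grey bars for the median of all tested genes in the class. The grey bars went from 0.14 to -0.27 with siSRSF1-3 and from 0.01 to 0.17 with siSRSF1-2, and NOTCH3 and JAG1 lay below the bar of their class in both.

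The other genes of the pathway came from a list by role that was written from gene function. It held 60 genes besides the members, of which 49 were tested and 11 had a mean below 0.5 FPKM, among them DLL1, DLL4, HES5, HEY2, HEYL and NRARP. With siSRSF1-3, 0 of the 49 passed in the limma fit, 3 as higher and 3 as lower by the unadjusted p with this fold change kept, and 2 as lower with voom. The median over these genes was 0.03 on the log2 scale. With siSRSF1-2, 2 of the 49 passed as lower and none as higher, beside 2.73% and 2.22% of all genes tested, with a median of 0.01. This count was not tested against those shares. With OE-LINC01134, 0 passed, 4 as lower at an unadjusted p and 1 as lower with voom, with a median of 0.07. Between the siRNAs, 0 passed, 3 as higher and 2 as lower at an unadjusted p, and 0 with voom, with a median of -0.09. Of all genes, the limma fit passed 0.331% as higher and 0.929% as lower with siSRSF1-3. These shares were 0.257% and 0.593% with OE-LINC01134, and 0.0342% and 0.0513% between the siRNAs. At an unadjusted p, 2596, 1307 and 2883 of all genes passed in these 3 comparisons, and 587, 348 and 110 with voom.

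MAML3, a mastermind coactivator, and DNER, a neuronal transmembrane protein described as a Notch ligand, were the pair that passed with siSRSF1-2. MAML3 fell by 1.19 on the log2 scale (adjusted p = 0.0135, limma), from 2.70, 1.61 and 1.64 FPKM in the blank libraries to 0.715, 0.811 and 0.848 FPKM. DNER fell by 2.09 (adjusted p = 0.0430, limma), from 0.376, 1.61 and 1.92 FPKM to 0.212, 0.163 and 0.158 FPKM. The siSRSF1-2 libraries held 24, 19 and 22 reads of DNER. Its mean over the 12 libraries was barely above the filter of 0.5 FPKM, and only blank replicates 2 and 3 exceeded that level. DNER was thus tested only because of its level in these blank libraries, and its call as lower is not independent of the filter. DNER did not pass without blank replicate 2 or 3 or without any of the siSRSF1-2 libraries, with adjusted p values from 0.108 to 0.125, and MAML3 did not pass without blank replicate 1, where it was at -0.96, or without any of the siSRSF1-2 libraries (adjusted p from 0.0530 to 0.0584). With siSRSF1-3, MAML3 was at -1.94 (adjusted p = 0.0508) and it stands in a list that the study drew from these libraries. MAML3 was at 0.591, 2.85 and 0.569 FPKM with OE-LINC01134. DNER was at 0.272, 0.070 and 0.212 FPKM with siSRSF1-3 and at 0.246, 0.447 and 0.320 FPKM with OE-LINC01134. MAML3 overlaps the gene of microsomal glutathione S-transferase 2, at a mean of 4.33 FPKM, on the opposite strand.

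The most abundant other gene of each role was also examined, and none of them passed the threshold in any of the 4 comparisons. APH1A, a subunit of gamma-secretase, was at 42.2 to 45.6 FPKM in the blank libraries, with a log2 fold change of 0.45 with siSRSF1-3 (adjusted p = 0.175) and 0.01 with siSRSF1-2 (adjusted p = 0.925). SNW1, a nuclear cofactor of the activation complex, was at -0.19 with siSRSF1-3 (adjusted p = 0.539) and HDAC1, a histone deacetylase of corepressor complexes, was at 0.13 (adjusted p = 0.662). ITCH, a ubiquitin ligase that acts on Notch, was at 0.30 with siSRSF1-3 (adjusted p = 0.231) and DLK2, a non-canonical ligand, was at -0.12 (adjusted p = 0.628). RFNG, a fringe glycosyltransferase that modifies the receptor, was at 55.5, 40.8 and 20.8 FPKM with siSRSF1-3 against 13.3 to 17 FPKM in the blank libraries, a log2 fold change of 1.23 that did not pass (adjusted p = 0.102). RFNG overlaps the gene of G protein pathway suppressor 1, at a mean of 27.3 FPKM, on the opposite strand. HES7, a further target, was at 2.13, 8.85 and 7.92 FPKM in the blank libraries, a range that held all libraries of both siRNA groups. NUMB, an endocytic inhibitor of Notch that the study discusses, was at 7.95 to 11.3 FPKM in the blank libraries, 10.5 to 11.3 FPKM with siSRSF1-2 and 6.56 to 9.68 FPKM with siSRSF1-3, and its log2 fold changes were 0.14 (adjusted p = 0.487) and -0.38 (adjusted p = 0.295).

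**Figure D5:**
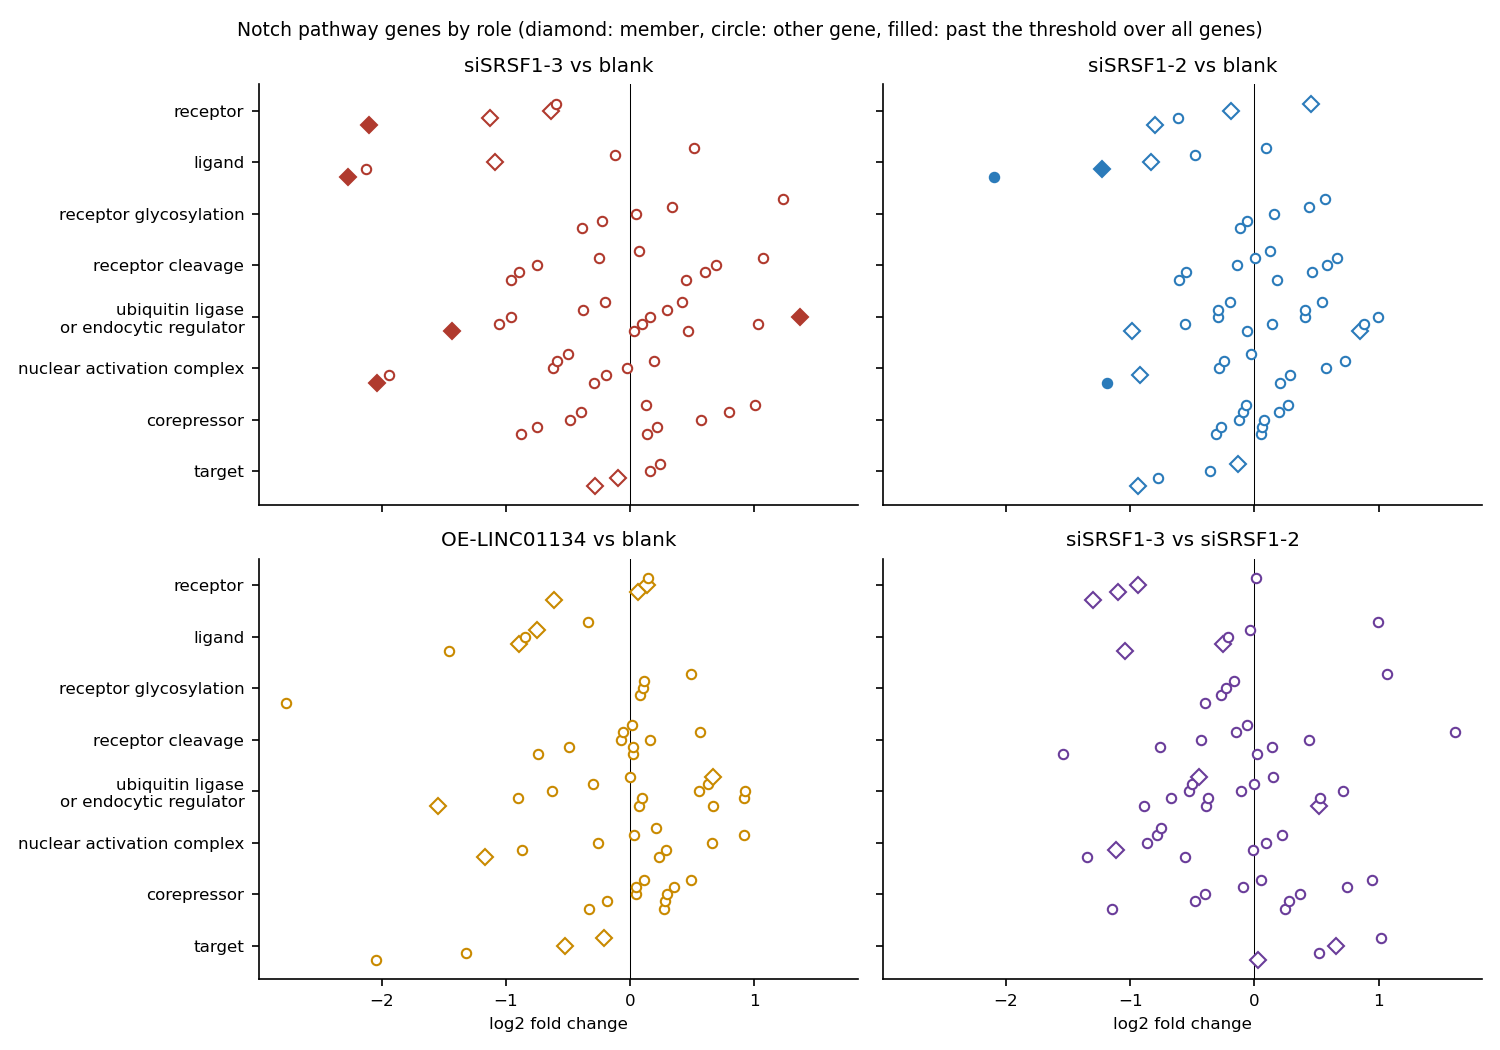
Log2 fold change (x axis) of the tested Notch pathway genes by role (y axis) in the 4 comparisons, with diamonds for the 10 members, circles for the 49 other genes and filled symbols past the threshold over all genes. The other genes spread to both sides of 0 in each role with more than 3 genes, and the filled circles are DNER and MAML3 with siSRSF1-2.

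For the 8 members whose group means spanned at least 1 on the log2 scale, the tested genes with the most similar profile over the 12 libraries were listed by the root-mean-square difference of log2(FPKM + 0.1), each profile centred on its mean. A plasma membrane calcium pump (ATPase plasma membrane Ca2+ transporting 4, ENSG00000058668) was nearest to both NOTCH3 (0.181) and JAG1 (0.183), and atlastin GTPase 1 ranked 3 for NOTCH3 (0.199) and 2 for JAG1 (0.214). NOTCH3 itself ranked 3 for JAG1 (0.225). The nearest genes to the other members were shugoshin 2 for NOTCH1 (0.102), dystonin for NOTCH2 (0.0814), leucine rich repeat containing 4B for JAG2 (0.160), protein tyrosine phosphatase receptor type U for MAML2 (0.142), coiled-coil and C2 domain containing 1B for DTX3 (0.153) and frizzled class receptor 4 for DTX4 (0.162). These distances describe 12 libraries that share groups and include near-identical pairs, and they carry no test. Fewer cells with a transcript and less transcript per cell cannot be told apart in such bulk libraries.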

How the data were processed

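The authors deposited FPKM per gene for 12 libraries, with gene lengths, coordinates and full names. The labels name a SMARTer mRNA kit, mouse as organism and, in the submitters' processing notes, the mouse builds GRCm38 and mm10, while the gene identifiers are human. The study's supplementary methods name another preparation, a NEBNext kit with poly-T selection. Its methods give the transient transfection for HOS cells, while the libraries are labelled U2OS. The aligner, counter, strand setting and human build are not given in the sources used here. FPKM times gene length gave whole reads (within 0.01) for 100% of values, and the implied library sizes carry a scaling other than the read total (0.712 and 0.888 times it in siSRSF1-3 replicates 1 and 2, 0.990 to 1.09 times elsewhere).

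The fits used limma 3.58.1 under R 4.3.3 (lmFit and a trended eBayes) and log2(FPKM + 0.1) of the 3 + 3 libraries compared, after tests on simulated data. The members and gene lists were chosen with earlier results of these data known. Named genes were the members, SRSF1, LINC01134, NUMB, other pathway genes past the threshold (up to 6 a comparison), the most abundant other gene of each role and the 3 nearest profiles of members spanning at least 1 on the log2 scale. Family shares, and DLL3 and MAML1 with them, were added after their values were seen, as was the averaging of near-identical libraries. Alternatives covered pseudocounts, filters, scaling, thresholds, gene length, voom, leaving out each library and a replicate block. No pairing of the libraries by replicate number was seen. Sequences and splicing were not analysed here.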

Additional observations from a re-analysis of the deposited data

Results flagged for a closer look

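NOTCH2 lay on opposite sides of the blank libraries with the 2 siRNAs. All 3 siSRSF1-2 libraries were above the blank libraries and all 3 siSRSF1-3 libraries were below them, with log2 fold changes of 0.46 and -0.64, or 0.24 and -0.29 with the length trend removed. However, siSRSF1-3 replicate 3, at 11.57 FPKM, was at nearly the level of blank replicate 3, at 11.62 FPKM. The direct contrast, siSRSF1-3 against siSRSF1-2, gave a log2 fold change of -1.10 ± 0.25, which did not pass the threshold over all genes. It was -1.38 and passed without siSRSF1-3 replicate 3, and -0.53 with the length trend removed. NOTCH2 is the longest member, and the part of gene length in this difference was not tested beyond that value. The groups of 3 libraries were too small to be searched for single outlying values.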

How the results depend on the processing

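Counts of genes past the threshold are given for siSRSF1-3, siSRSF1-2, OE-LINC01134 against blank and siSRSF1-3 against siSRSF1-2, where they moved by over 1.5 times. For the members (5, 1, 0 and 0 as reported), siSRSF1-3 gave 0 with FPKM rescaled to a common sum or to the read total, near-identical libraries averaged (added after the data were seen), no filter or a pseudocount of 0.01, 2 with one prior variance in place of a trend, and 3 with a pseudocount of 1. With siSRSF1-2 it was 0 with averaging, a pseudocount of 1 or a fit over all 4 groups, 2 with a pseudocount of 0.01, 3 with voom and 8 with no minimum fold change. OE-LINC01134 gave 1 with voom, 1 with the fit over all 4 groups and 2 at an unadjusted p, and the contrast of the siRNAs gave 3 with that fit and 4 at an unadjusted p. Leaving out each library gave 0 to 6, 1 to 2, 0 to 4 and 0 to 5 members.

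For the other pathway genes (0, 2, 0 and 0), siSRSF1-3 gave 1 with a pseudocount of 1, 2 with voom, 6 with the fit over all groups and 6 at an unadjusted p. With siSRSF1-2 it was 0 with averaging, a pseudocount of 1 or the fit over all groups, 1 without the filter or with its minimum at 1 FPKM, 4 with the common sum and 17 with no minimum fold change. OE-LINC01134 gave 1 with voom or no minimum fold change, 2 with the fit over all groups and 4 at an unadjusted p, and the contrast of the siRNAs gave 4 and 5 under the latter settings. Leaving out each library gave 0 to 11, 0 to 3, 0 to 9 and 0 to 12.

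Over all genes (221, 868, 149 and 15), siSRSF1-3 gave 1 with the common sum, 69 with read totals, 63 with a pseudocount of 0.01, 116 with no filter, 341 without the length trend, 587 with voom, 2422 with the fit over all groups, 2596 at an unadjusted p and 0 with averaging. With siSRSF1-2 it was 314 with the fit over all groups, 379 with a pseudocount of 1, 4702 with no minimum fold change and 0 with averaging. OE-LINC01134 gave 1 with averaging, 81 with no filter, 348 with voom, 689 with the fit over all groups and 1307 at an unadjusted p. The contrast of the siRNAs gave 0 with averaging, 1 with a pseudocount of 0.01, 8 with the common sum, 36 with the minimum at 1 FPKM, 68 without the length trend, 84 with a pseudocount of 1, 109 with no filter, 110 with voom, 2731 with the fit over all groups and 2883 at an unadjusted p. Leaving out each library gave 0 to 4184, 534 to 1188, 1 to 1540 and 0 to 5358. The cause of these shifts was not tested.

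With a replicate block, 0 members and 0 genes passed with siSRSF1-3, 1 member, 0 other pathway genes and 681 genes with siSRSF1-2, 0 members and 4 genes with OE-LINC01134, and 0 genes between the siRNAs. Deviations of libraries with the same number correlated between -0.08 and 0.04, so no pairing by number was seen. A shared effect smaller than the spread within a group would not show in these values. Rescaling to a common sum shifted the median of all genes to -0.43, 0.15, 0.14 and -0.57, and read totals shifted it to -0.26 with siSRSF1-3. Single-gene log2 fold changes under the alternatives were sorted into 721 kept, 48 moved in size and 20 that kept direction without passing. For a member, a value was kept when it shifted by less than the SD between libraries, whether or not its call held. The call was followed only for DNER and MAML3 with siSRSF1-2. With siSRSF1-3, JAG1, NOTCH3, DTX4 and DTX3 passed in 7 of 19 alternatives each, and MAML2 in 6 of 18. Members changed sign in 2 of 19 alternatives for NOTCH1 with OE-LINC01134, in 1 each for HEY1 with siSRSF1-3 and for JAG2 and DTX3 between the siRNAs, and in 6 for HEY1 there.

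Each library held at least 26237763 reads on genes, and the number of libraries per group, with near-identical pairs among them, limited the precision.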
